A study of Mus musculus with 27 samples.

Results

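The genes of the synaptic vesicle cycle and of exocytosis were compared between whole brains of DBA and C57 mice. Members were taken by gene symbol alone: the numbered synaptotagmins, syntaxins, syntaxin-binding proteins, vesicle-associated membrane proteins (Vamp), synapsins and complexins, the SV2 proteins, Rab3a to Rab3d, Rab5a to Rab5c, and a set of single genes such as Snap25, Nsf, Syp and Dnm1. The rule found 63 probe sets of 50 genes among 12422 probe sets on the array. Of these, 58 probe sets of 47 genes were bright enough to be tested, out of 9316 tested in all. The 5 left out as too dim were the only sets of Vamp5, Syt8 and Syt10 and the second sets of Vamp7 and Rab3a. Syn1, the SV2 genes, Unc13a, Amph, Synj1 and Rph3a had no matching probe set and were not analysed here.

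A synaptic vesicle fuses with the plasma membrane when SNARE proteins on the vesicle (Vamp) zip together with SNARE proteins on the target membrane (syntaxin and Snap25). Synaptotagmins sense the calcium that triggers fusion, complexins hold and release the assembled SNAREs, and Nsf with its adaptors takes them apart afterwards. Rab proteins direct vesicles to their membranes, and dynamin cuts new vesicles off during endocytosis.

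The DBA group was 4 untreated mice written as DBA/2J, with no sex given. The C57 group was 5 untreated males written as C57BL/2. All were 10 weeks old, and each gave 1 array made from 5 ug of total brain RNA. The labels carry no transgene or treatment in either strain and do not say how animals were housed or dissected. Each number in a title was taken as 1 animal, which the labels do not spell out, so p-values measure the spread between these arrays. Every sample's description also carries the name C57 1, so the strain was read from the titles.

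The 9 arrays had median intensities of 160 to 198, with DBA 4 (189), C57 1 (198) and C57 3 (192) highest. Neuron markers were bright in both strains: 14 of 14 measured genes passed the brightness limit, none differed at the threshold, and their summed intensity was 68866 to 77898 in DBA and 70704 to 73918 in C57. That list holds the members Snap25, Syt1 and Syp. Summed oligodendrocyte markers ran from 32209 to 38019 in DBA and from 33630 to 46083 in C57, and 1 of 7 tested genes lay above 0. Mobp, a myelin protein, passed the threshold at a dimmer set, 99046_at, lower in DBA (-0.84 ± 0.12, adjusted p = 0.00416), and Mag, Cldn11 and Mog had an unadjusted p under 0.05 (-0.57 ± 0.16, -0.59 ± 0.16 and -0.62 ± 0.18). None of 9 astrocyte, 10 vascular and 5 pituitary genes tested passed the threshold, and of 9 microglial genes C1qb and C1qc passed it, lower in DBA. The microglial gene Ctss was higher at an unadjusted p under 0.05 (0.32 ± 0.12). Of the 9, 3 lay above 0, with a median of -0.10. At that unadjusted level there were also 3 vascular genes and 2 astrocyte genes, Glul (-0.54 ± 0.16) and Slc1a2 (0.34 ± 0.12). Over all probe sets 12.2% reached it. Of 8 genes of other tissues, 6 were under the brightness limit. Xist, the RNA of the silenced X chromosome of females, had intensities of 16.4 to 24.8 in DBA and 19.6 to 36.0 in C57, with a mean under that limit. Of Y-linked genes, Uty had 62.7 to 102.4 in DBA and 57.6 to 173.2 in C57, and Eif2s3y had 295.8 to 337.8 and 249.3 to 384.1. Kdm5d was dim in DBA (3.9 to 32.5) and also in the C57 males (6.5 to 44.3). The sex of the DBA mice was not tested. The Gapdh control, read at its 3' and 5' ends, had a log2 ratio of -0.36 ± 0.06 in DBA (SD, n = 4) and -0.24 ± 0.04 in C57 (SD, n = 5), with no overlap (exact permutation p = 0.0159, 2-sided, the smallest possible here). For beta-actin the ratio was 0.56 ± 0.06 in DBA (SD, n = 4) and 0.69 ± 0.15 in C57 (SD, n = 5), with an exact permutation p of 0.159. The part of RNA quality and of cell makeup in the members' differences was not tested. In whole tissue, fewer cells of a type and less RNA per cell cannot be told apart.

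Across the 58 tested member probe sets, none differed between the strains at an adjusted p under 0.05. Over all probe sets tested, 2.5% did. Values are log2 differences of intensity, DBA minus C57, with standard errors and 95% intervals from limma. These errors and intervals are moderated, that is, each set's spread is drawn toward that of all probe sets tested. The p-values rest on the same moderated errors and are adjusted over all 9316 probe sets. The smallest adjusted p of a member was 0.0591. At an unadjusted p under 0.05 there were 10 members, 17.2% of those tested and beside 12.2% of all probe sets, with 6 higher and 4 lower in DBA. In 5 members (8.62%) the 4 DBA values did not overlap the 5 C57 values, beside 6.45% of all probe sets. These were Stx3, Stx18, Syn2 and Rab3d, higher in DBA, and Stx1a, lower in DBA.

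Most of the strain differences were bounded to less than a doubling. The 95% interval lay within 2-fold either way in 54 of 58 members (93.1%), beside 85.3% of all probe sets. It lay within 1.5-fold in 33 members (56.9%), beside 56.7% of all. The members' median difference was 0.10, from -1.04 to 0.58, and 39 of 58 (67.2%) lay above 0, beside a median of 0.01 and 51.7% above 0 over all probe sets. The 4 intervals that reached past 2-fold were those of Vamp4 at 102317_at, Vamp1 at 93652_i_at, Cplx2 and Rab3a.

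**Figure D1:**
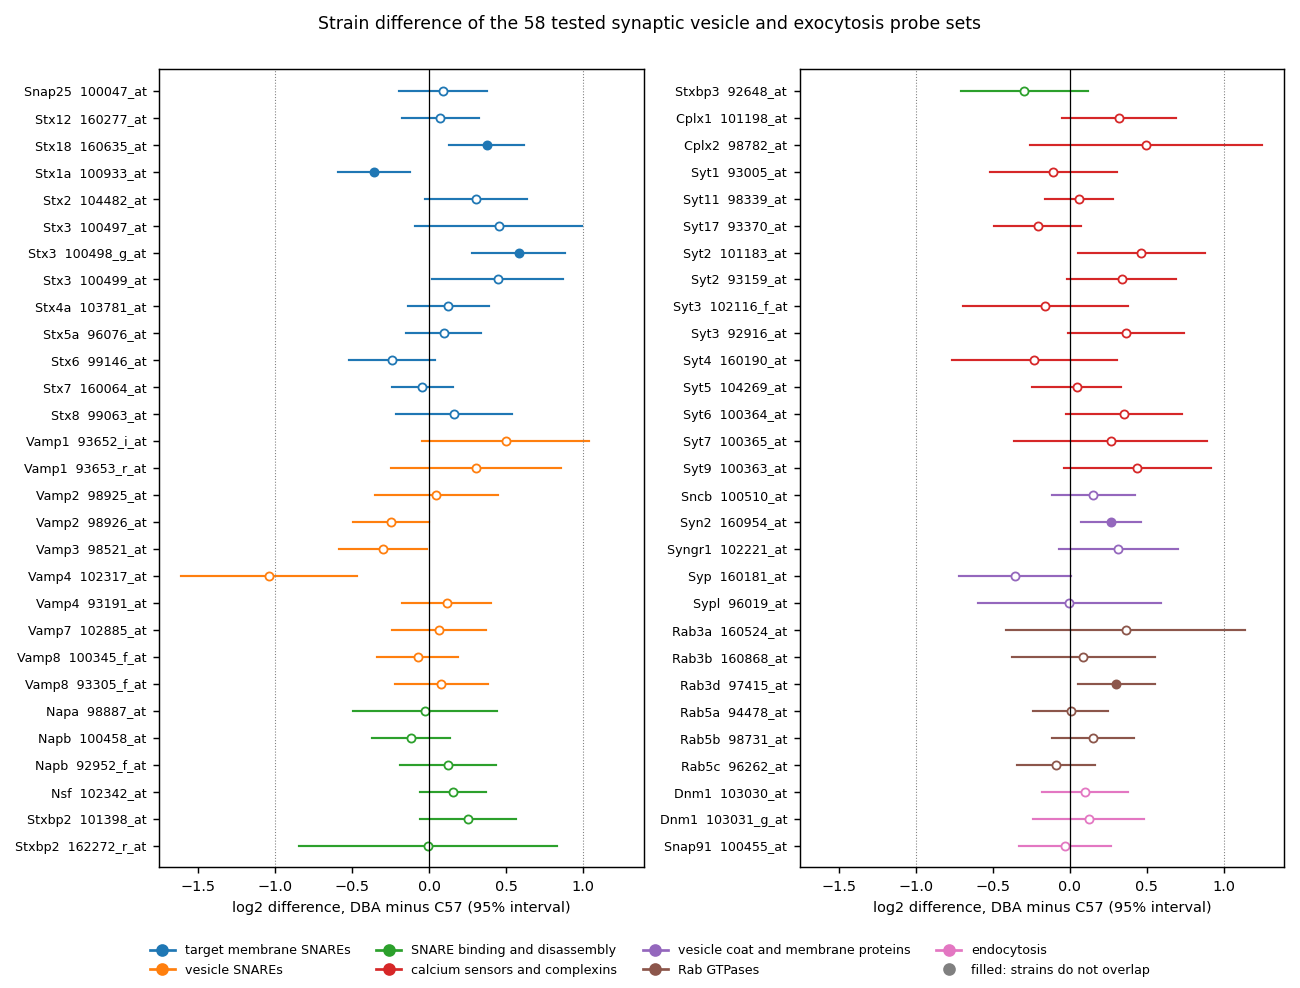
Log2 difference in intensity (DBA minus C57, horizontal axis) of each of the 58 tested member probe sets, with 95% intervals, coloured by role. Filled points are the 5 sets whose strains do not overlap, dotted lines mark a 2-fold difference, and most intervals cross 0.

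Of the 13 tested sets of target membrane SNAREs, 3 were without overlap, beside 6.45% of all probe sets. Of the 13, 10 lay above 0 (beside 51.7% of all probe sets) and 3 below, with a median of 0.13. Snap25, which supplies a pair of helices to the synaptic SNARE complex, had intensities of 17158, 17917, 21136 and 15349.5 in DBA 1 to 4, against 14793, 18328, 14835, 18629.9 and 17254 in C57 1 to 5. The strains overlapped widely, and the difference was 0.09 ± 0.13 (95% interval -0.19 to 0.38, adjusted p = 0.857).

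Stx1a, the plasma membrane syntaxin of nerve terminals, was the 1 member whose DBA values all lay below the C57 values. It had 1761, 1603, 1456 and 1679 in DBA, against 2321, 1914, 2048, 1952 and 2191 in C57. Every DBA animal lay under the lowest C57 animal. The difference was -0.36 ± 0.10 (-0.59 to -0.13), 1.28-fold lower in DBA, with an adjusted p of 0.140.

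Stx3, a syntaxin of ribbon synapses and of apical membranes, lay above 0 at all 3 of its sets. At 100498_g_at it had 130.3, 111, 129 and 106 in DBA, against 90.8, 75.6, 63.0, 90.1 and 80.0 in C57. The lowest DBA animal was above the highest C57 animal. This difference of 0.58 ± 0.13 (0.28 to 0.88), 1.5-fold, gave the smallest p of any member (adjusted p = 0.0591). The sets 100497_at and 100499_at, whose strains overlapped, differed by 0.45 ± 0.24 (adjusted p = 0.526) and 0.45 ± 0.19 (adjusted p = 0.377). The first of them was designed from the same source record as 100498_g_at, so these sets are not independent of each other.

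Stx18, a syntaxin of the endoplasmic reticulum that does not act at synapses, had 408, 371, 496 and 437 in DBA, against 339, 322, 309, 324 and 351 in C57. No animal crossed between the strains. It was 1.29-fold higher in DBA (0.37 ± 0.11, 0.13 to 0.61, adjusted p = 0.142). The other plasma membrane syntaxins, Stx2 and Stx4a, differed by 0.31 ± 0.15 and 0.13 ± 0.12. The Golgi and endosomal syntaxins lay between -0.24 ± 0.12 for Stx6 and 0.16 ± 0.17 for Stx8, with Stx5a at 0.09 ± 0.11, Stx12 at 0.07 ± 0.11 and Stx7 at -0.04 ± 0.09.

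**Figure D2:**
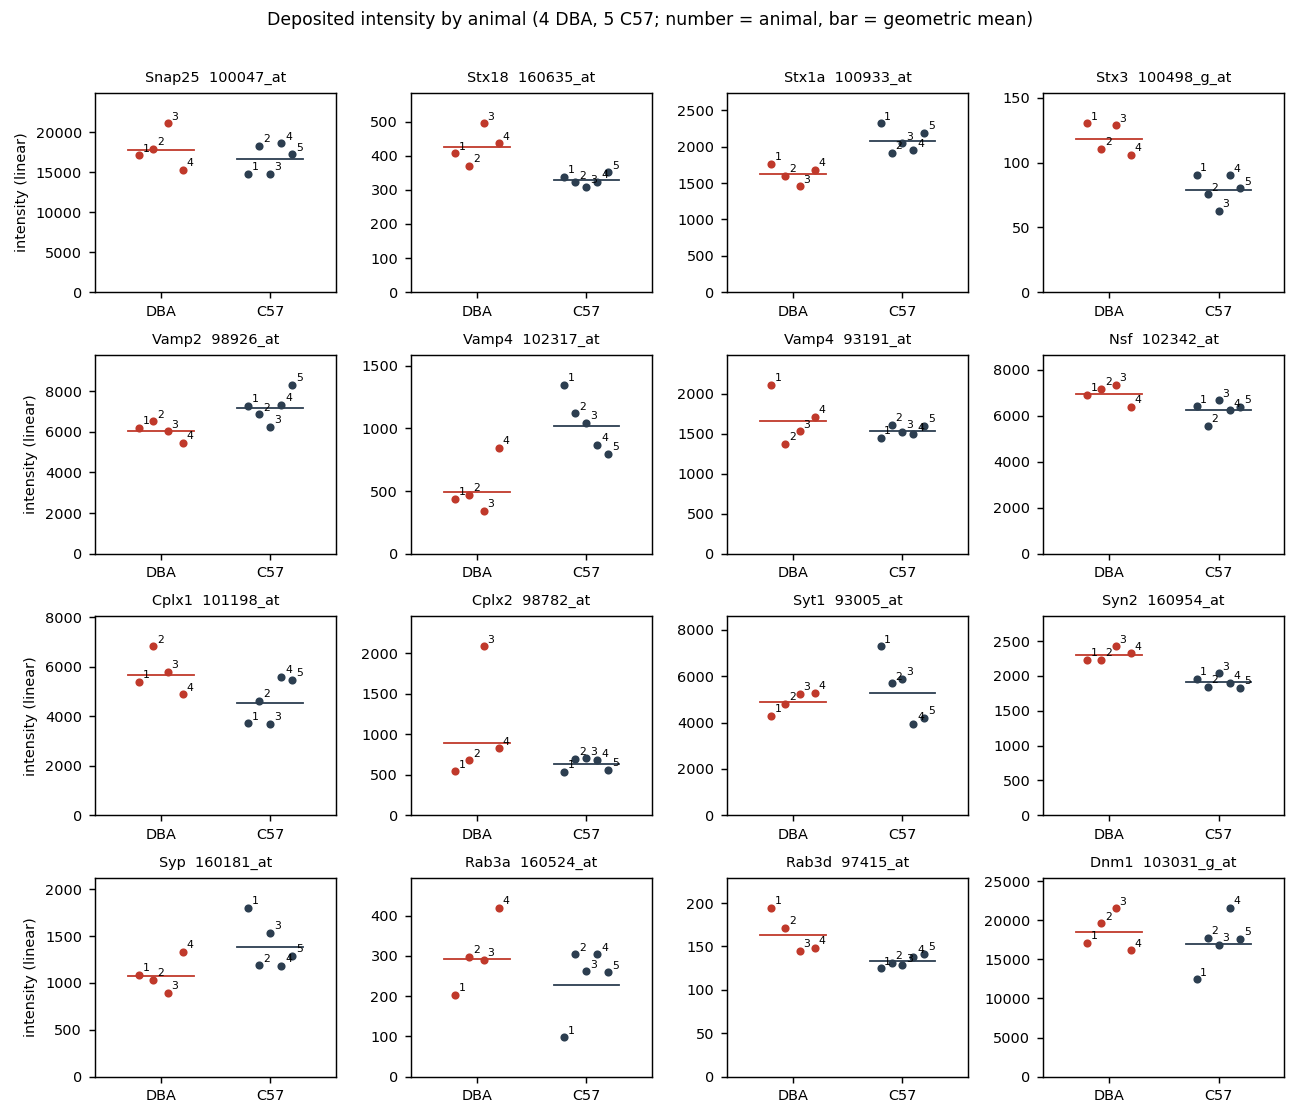
Deposited intensity (linear, vertical axis from 0) of 16 member probe sets in each of 4 DBA and 5 C57 animals, with the geometric mean of each strain as a bar and the animal's number beside each point. Stx1a, Stx3, Stx18, Syn2 and Rab3d show separate strains, while Vamp4 102317_at overlaps through DBA 4 and Cplx2 has 1 high DBA animal.

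Among the vesicle SNAREs, 6 of 10 tested sets lay above 0, beside 51.7% of all probe sets. The strains separated at no set, and the median was 0.06. Vamp2, the main SNARE of synaptic vesicles, had 6196, 6520.2, 6017 and 5451 at its brighter set 98926_at in DBA, against 7269, 6851, 6238, 7311 and 8304 in C57. DBA 2 alone lay among the C57 values, and DBA 1, 3 and 4 lay below all of them. The difference was -0.25 ± 0.11 (-0.49 to -0.00, adjusted p = 0.408), and 98925_at gave 0.05 ± 0.18.

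Vamp4, a SNARE of the trans-Golgi network and endosomes, had the largest difference in size among members, at 1 of its 2 sets. Its values and those of Syn2, Rab3d, Syt2, Vamp1 and Napa are given for every animal because of their values, after these were seen. At 102317_at Vamp4 had 439.7, 472, 342 and 845 in DBA, against 1348, 1120.0, 1046, 868 and 798 in C57. DBA 1, 2 and 3 lay far below every C57 animal, and DBA 4 lay above C57 5. The difference was -1.04 ± 0.26 (-1.61 to -0.47), 2.06-fold lower in DBA, with an adjusted p of 0.0755. Without DBA 4 it was -1.30 and passed the threshold (adjusted p = 0.00911).

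The other Vamp4 set, 93191_at, did not share this. It had 2111, 1372, 1533 and 1711 in DBA, against 1447, 1609, 1528, 1492 and 1599.7 in C57. The highest and the lowest values were both DBA, and the difference was 0.11 ± 0.13 (-0.18 to 0.40, adjusted p = 0.819). The intervals of the 2 sets do not overlap, and their differences lie 1.15 apart on the log2 scale. The cause of this gap was not tested.

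Vamp1, a synaptic vesicle SNARE like Vamp2, had 2880.0, 2909.5, 2886 and 2375 at 93652_i_at in DBA, against 1161, 2468, 1545, 2683 and 2364 in C57. C57 1 and 3 were low, DBA 1, 2 and 3 lay above every C57 animal, and DBA 4 lay among them (0.50 ± 0.24, adjusted p = 0.461), and 93653_r_at gave 0.30 ± 0.25. Vamp3, which acts in most cells, differed by -0.30 ± 0.13 (adjusted p = 0.377). The endosomal and lysosomal Vamp7 and Vamp8 lay between -0.08 ± 0.12 and 0.08 ± 0.14. Vamp5, with 23.8 to 41.2 in DBA and 22.1 to 112 in C57, was not tested because its geometric mean over all 9 arrays was under the brightness limit.

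**Figure D3:**
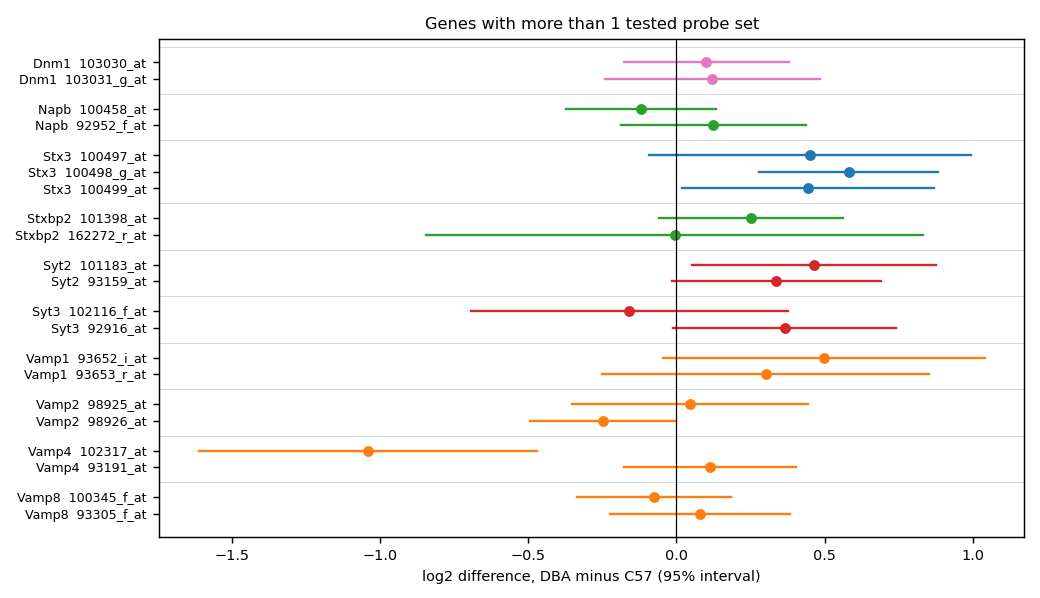
Log2 difference (DBA minus C57, horizontal axis) with 95% intervals for the 10 member genes that had more than 1 tested probe set, grouped by gene and coloured by role. The intervals of the 2 Vamp4 sets do not meet, while those of the other 9 genes do.

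Of the 10 genes with several tested sets, 4 (Dnm1, Stx3, Syt2 and Vamp1) had the same sign at all sets and 6 had opposite signs. In Dnm1, Stx3 and Vamp1 a source record was shared between sets or not given, so their sets may not be independent. Sets from different records were those of Syt2 and, with opposite signs, of Napb, Syt3, Vamp2 and Vamp4. In Napb, Stxbp2, Syt3, Vamp2 and Vamp8 the intervals of the opposed sets overlapped. Some of these sets carry suffixes of the array maker that mark sequence shared with similar genes (f), shared within a group of transcripts (g), or limits in the choice of probes (i and r). Only the difference between strains is set side by side for them, since levels of different probe sets cannot be compared.

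The proteins that bind SNAREs or take them apart gave no unadjusted p under 0.05 in 7 sets, with 3 above 0 and 4 below. Nsf, the ATPase that disassembles used SNARE complexes, had 6909.7, 7162, 7336 and 6376 in DBA, against 6409, 5550.3, 6660.2, 6228 and 6373 in C57. DBA 4 lay among the C57 animals and the rest lay above them (0.15 ± 0.10, -0.06 to 0.37, adjusted p = 0.6). Napa, an adaptor of Nsf, had 4258, 3946, 3939 and 3758 in DBA, against 3158, 4759, 2676, 5271 and 5079 in C57. The C57 animals lay on both sides of all DBA animals, with C57 1 and 3 below (-0.02 ± 0.21). Napb, the brain form of the adaptor, gave -0.12 ± 0.11 and 0.13 ± 0.14. The syntaxin-binding proteins measured were Stxbp2 (0.25 ± 0.14 and -0.01 ± 0.37) and Stxbp3 (-0.30 ± 0.19).

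The calcium sensors and complexins had the highest median of the role groups, 0.29. Of their 14 tested sets, 10 lay above 0, beside 51.7% of all probe sets, and no set was without overlap. Syt1, the main calcium sensor of fast release in the forebrain, was not among the higher ones. It had 4298, 4815, 5232 and 5291 in DBA, against 7288, 5695, 5880.2, 3938 and 4219 in C57. C57 1 was highest, C57 4 and 5 were lowest, and DBA lay between (-0.11 ± 0.18, -0.52 to 0.30, adjusted p = 0.886).

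Syt2, the fast sensor of the hindbrain and spinal cord, had 355, 404, 343 and 333 at 101183_at in DBA, against 393, 252, 260.1, 196 and 232 in C57. C57 1 alone lay among the DBA animals. The difference was 0.46 ± 0.18 (0.05 to 0.88, adjusted p = 0.330), and without C57 1 it was 0.61 and passed the threshold (adjusted p = 0.0457). Over all 19 alternative fits it ranged from 0.36 to 0.70, with an adjusted p of 0.0457 to 0.590, and only that omission passed. The other set, 93159_at, gave 0.34 ± 0.16 (adjusted p = 0.440).

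Of the remaining synaptotagmins, Syt9, which also triggers fast release, differed by 0.44 ± 0.21, and Syt7, linked to slow release, by 0.27 ± 0.28. Syt6 differed by 0.35 ± 0.17, and Syt3 by 0.37 ± 0.17 at 92916_at and -0.16 ± 0.24 at 102116_f_at. Syt9, Syt6 and Syt7 were dim, with intensities of 50.3 to 123.4, 70.1 to 156 and 30.2 to 92.7 over both strains. Syt5 and Syt11 were close to 0 (0.04 ± 0.13 and 0.06 ± 0.10). Syt4 and Syt17 lay below (-0.23 ± 0.24 and -0.21 ± 0.13). None of these had an unadjusted p under 0.05.

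Cplx1 had 5379, 6814, 5789 and 4878 in DBA, against 3709, 4619, 3692, 5599.5 and 5460.4 in C57. C57 1, 2 and 3 lay under every DBA animal and C57 4 and 5 did not (0.32 ± 0.17, -0.05 to 0.69, adjusted p = 0.504). Cplx2, the complexin of most excitatory forebrain neurons, had 543, 679, 2087 and 829.7 in DBA, against 537, 700.3, 706, 680.3 and 564 in C57. DBA 3 stood far above the other animals. The difference of 0.50 ± 0.34 (-0.26 to 1.25, adjusted p = 0.647) became 0.09 without that animal.

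The proteins of the vesicle coat and membrane pointed both ways. Syp, or synaptophysin, the abundant membrane protein of synaptic vesicles, had 1090.1, 1035, 896 and 1332 in DBA, against 1799, 1188, 1534, 1186 and 1289.6 in C57. DBA 1, 2 and 3 lay under every C57 animal and DBA 4 lay among them. The difference was -0.36 ± 0.16 (-0.72 to 0.01, adjusted p = 0.425).

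Syn2, a synapsin that tethers vesicles in the reserve pool, was the steadiest member within strains, with a pooled SD of 0.06. It had 2232, 2228, 2422 and 2325 in DBA, against 1959.8, 1844, 2036, 1899 and 1829 in C57. All DBA animals lay above all C57 animals, by a difference of 0.27 ± 0.09 (0.07 to 0.46), 1.2-fold, with an adjusted p of 0.205. Syngr1, a relative of synaptophysin, differed by 0.31 ± 0.17, Sncb, or beta-synuclein, by 0.15 ± 0.12, and the widely expressed Sypl by -0.00 ± 0.27.

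Among the Rab proteins, 5 of 6 tested sets lay above 0, beside 51.7% of all probe sets. Rab3a, the main Rab of synaptic vesicles, had 203, 298, 289.6 and 418 in DBA, against 97.7, 304, 262, 304 and 259.5 in C57. DBA 4 was highest and C57 1 was far below the rest. The difference of 0.36 ± 0.35 (-0.41 to 1.14, adjusted p = 0.776) was 0.06 without C57 1.

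Rab3d, a Rab3 of secretory granules, had 194, 171, 145 and 149 in DBA, against 125, 131, 128, 138 and 142 in C57. DBA 3 and 4 lay just above the highest C57 animal, so the strains did not overlap by a small margin (0.30 ± 0.11, 0.05 to 0.55, adjusted p = 0.283). Rab3b differed by 0.09 ± 0.21. The Rab5 proteins of early endosomes lay near 0, with Rab5a at 0.01 ± 0.11, Rab5b at 0.15 ± 0.12 and Rab5c at -0.09 ± 0.11.

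Dnm1, the neuronal dynamin, had 17099.7, 19579.5, 21511 and 16169.9 at 103031_g_at in DBA, against 12430.2, 17731, 16836, 21554 and 17618 in C57. The C57 animals spanned the whole DBA range and went below it at C57 1 (0.12 ± 0.16, -0.24 to 0.48, adjusted p = 0.848). The other set differed by 0.10 ± 0.12. Snap91, a clathrin adaptor of nerve terminals, differed by -0.03 ± 0.13.

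The members varied slightly less between animals of a strain than probe sets in general, with a median pooled SD of 0.20 on the log2 scale beside 0.24 for all tested. The members were also brighter, with a median log2 intensity of 9.56 beside 8.38, and the part of brightness in the SD was not tested. The members' median SD was 0.19 in DBA and 0.22 in C57, beside 0.23 in DBA and 0.23 in C57 over all tested. The C57 SD was the larger in 32 of 58 members (55.2%), beside 50.2% of all. Stxbp2 at 162272_r_at (0.64), Rab3a (0.59) and Cplx2 (0.58) had the highest pooled SD. Syn2 (0.06), Stx7 (0.07) and Nsf (0.10) had the lowest.

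Several members were lowest, or highest, within both strains on the same arrays. On those with the highest median, DBA 4 for DBA and C57 1 and 3 for C57, 11 members were lowest within both strains, 19.0% of those tested beside 8.78% of all probe sets. They were Snap25, Stx4a, Vamp1, Vamp8, Napa, Napb at 92952_f_at, Cplx1, Syt11, Rab3b and both sets of Dnm1. On the same arrays 7 members were highest within both strains (12.1%, beside 14.7% of all): Syt1, Syt4, Syt17, Syp, Stxbp2 at 162272_r_at, Stxbp3 and Napb at 100458_at. This count was chosen after the values were seen. With the array median as a covariate, 1 member passed the threshold, Vamp4 at 102317_at (-1.06, adjusted p = 0.0366), and the members' median difference was 0.11.

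**Figure D4:**
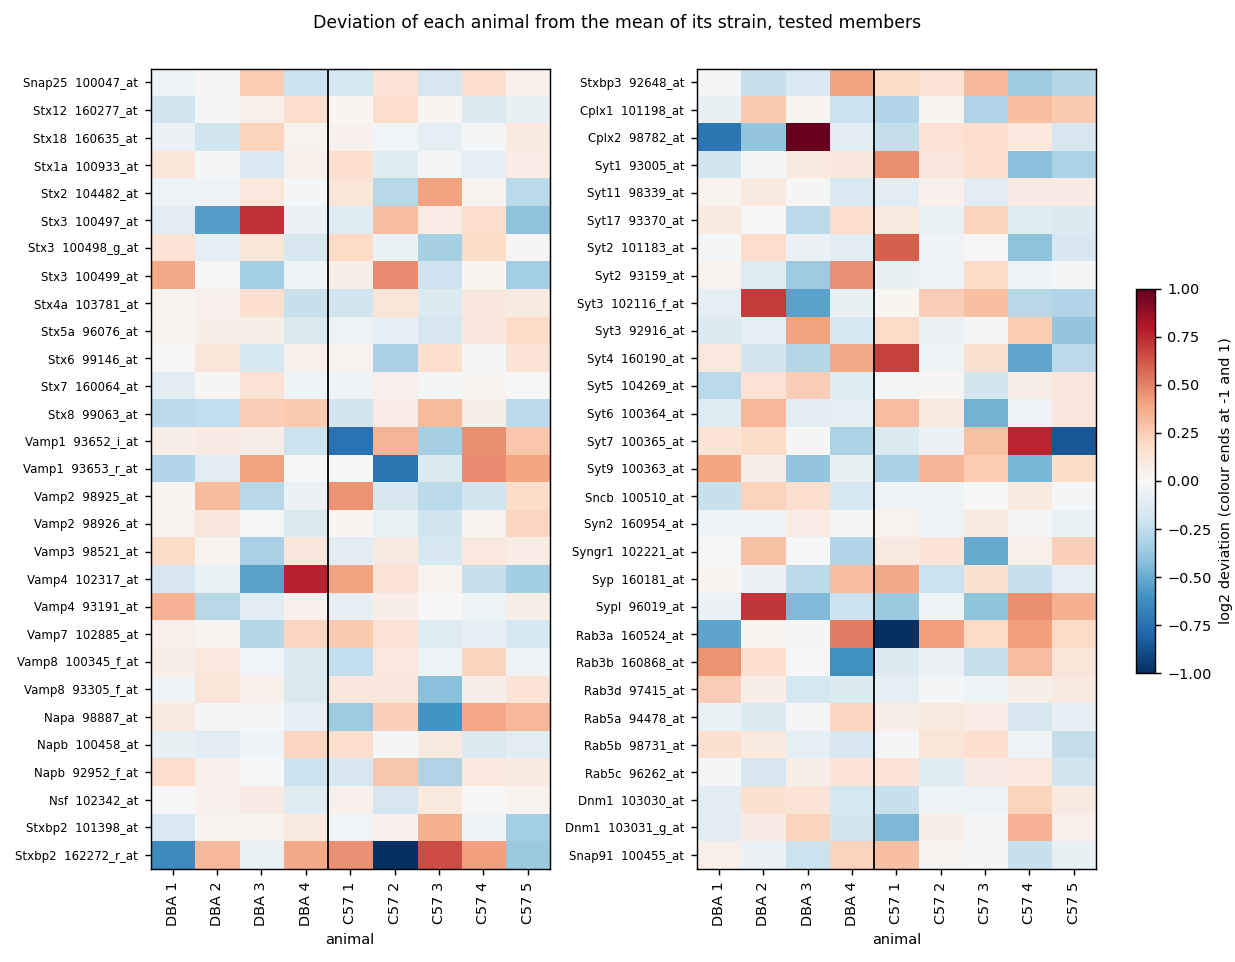
Log2 deviation of each of the 4 DBA and 5 C57 animals (columns) from the mean of its strain, for each of the 58 tested member probe sets (rows), with red above and blue below the mean and colour ending at -1 and 1. Snap25 and Cplx1 are low in DBA 4 and in C57 1 and 3, while Syt1 and Syp are high there, and the 3 cells past the ends of the scale are Cplx2 in DBA 3, Rab3a in C57 1 and Stxbp2 at 162272_r_at in C57 2.

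Other genes of the vesicle cycle, from lists chosen with earlier results of these data known, mostly did not pass the threshold either. Counts take 1 probe set a gene, the brightest. Beside them, 2.5% of all probe sets tested passed the threshold and 51.7% lay above 0. Of 15 tested genes that load transmitters or pump protons into vesicles, 1 was lower in DBA, with 5 above 0 and a median of -0.04. This was Slc32a1, the vesicular transporter of GABA and glycine, at 1652, 1611, 1511 and 1724 in DBA, against 3057, 5996, 4604, 7608 and 7767 in C57 (-1.76 ± 0.26, adjusted p = 0.00416). All DBA animals were below all C57 animals, among which C57 1 was lowest. None of 9 active zone genes passed, with a median of 0.06, and the smallest p was that of Pclo, a scaffold protein (-0.33 ± 0.12, adjusted p = 0.255).

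None of 23 genes of clathrin endocytosis and recycling passed, with 6 above 0 and a median of -0.04, and Hspa8, the chaperone that uncoats vesicles, had the smallest p (-0.23 ± 0.10, adjusted p = 0.405). None of 14 other SNAREs and tethering factors passed, with a median of -0.03, and Vti1a, an endosomal SNARE, had the smallest p (0.66 ± 0.28, adjusted p = 0.377).

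None of 19 Rab regulators and other Rabs passed at the brightest set. Rabep1, an effector of Rab5, passed at 1 of its dimmer sets, 102724_at, with 113.8, 152.7, 121.1 and 126.2 in DBA, against 240.7, 188.0, 241.3, 212.0 and 204.6 in C57 (-0.76 ± 0.12, adjusted p = 0.00819). The strains did not overlap there, but the other Rabep1 sets gave 0.33 ± 0.14 and 0.00 ± 0.17. Of 16 other vesicle and dense core genes, 1 was higher in DBA: Scg5, a chaperone of hormone processing in dense core vesicles. It had 2831, 2679, 2442 and 2467 in DBA, against 1744, 1643, 1834, 1380 and 1450 in C57, with no overlap (0.70 ± 0.12, 1.62-fold, adjusted p = 0.00885).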

How the data were processed

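RNA of whole brains was hybridised to 1 array per animal. The deposited table holds intensity per probe set on a linear scale. How the authors made these intensities is not given in the sources used here. After trimming 2% of the deposited intensities at either end, each array averaged 500.3, so the arrays share 1 scale and were not normalized again (array medians spanned 0.31 on the log2 scale, under the limit of 0.5). Detection calls were not used. Precision is limited by the number of arrays. The 18 arrays with lettered titles were not used here.

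Members were matched on the platform annotation's symbol, reading a letter after the digits (Stx1a) as part of the number. Only the 10855 probe sets with 1 symbol were named (396 had several and 1237 had none). Updating symbols through gene identifiers left the members as they were. From the deposited intensities, values under 1.70 (the 1st percentile of positive values, 1.08% of values) were raised to it and log2 was taken. The 66 array controls and the dimmest 25% of probe sets (geometric mean intensity under 35.4) were left out. Strains were compared in limma 3.58.1 (lmFit, then eBayes; R 4.3.3), without covariates, 2-sided, with Benjamini-Hochberg adjustment over 9316 probe sets and a threshold of 0.05. The fit was tested on simulated data. Folds are ratios of geometric means, ± is a standard error unless SD is written, and figures were drawn with matplotlib 3.10.9.

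The members, gene lists and naming rule were chosen with earlier results of these data known. By the rule, values of every animal are given for members past the threshold, for members without overlap and with an unadjusted p under 0.01, and for the brightest set of Snap25, Stx1a, Vamp2, Syt1, Nsf, Syp, Rab3a, Cplx1, Cplx2 and Dnm1. From the other lists of vesicle cycle genes, those past the threshold at any set are named, or the one with the smallest p. Alternatives were other scaling, floors, filters, variance model, readings of the rule, a block, and leaving animals out.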

Additional observations from a re-analysis of the deposited data

Results flagged for a closer look

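In 8 of 116 combinations of strain and tested member probe set (6.90%), 1 animal stood apart from the others of its strain by a gap test at the 95% level, which chance passes in about 1 of 20. In DBA these were Syt3 at 92916_at, with 864.3 in DBA 3 beside 578.6 to 616.9 in the rest, Syt6, with 156 in DBA 2 beside 113.2 to 115.9, Stx5a, with 785.6 in DBA 4 beside 887.4 to 905.2, and Vamp1 at 93652_i_at, with 2375.1 in DBA 4 beside 2880.0 to 2909.5. In C57 these were Rab3a at 160524_at, with 97.7 in C57 1 beside 259.5 to 303.9, Syngr1, with 742 in C57 3 beside 1090.4 to 1241.1, Syt2 at 93159_at, with 1797.8 in C57 3 beside 1495.5 to 1561.3, and Vamp8 at 93305_f_at, with 169.4 in C57 3 beside 237.8 to 247.7. All values are intensities.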

How the results depend on the processing

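The count of member probe sets past the threshold was 0, and 7 of 23 alternative counts gave 1. The member was Vamp4 at 102317_at with each array centred at its median (adjusted p = 0.0339), with the dimmest 50% of probe sets left out (0.0282), with an intensity trend and robust prior (0.0210), without DBA 4, with the array median as a covariate, and with DBA 4, C57 1 and C57 3 left out together (-1.15, 0.0416), and it was Syt2 at 101183_at without C57 1. The covariate and the joint omission were chosen after seeing the data. Counts by the brightest set of each gene, by other readings of the rule and at a stricter threshold reused the main fit. They added no member to it, so they had to give 0. Over all alternatives Vamp4 at 102317_at ranged from -1.30 to -0.86 (adjusted p 0.00911 to 0.254), Stx3 at 100498_g_at from 0.50 to 0.64 (0.0557 to 0.330), Stx1a from -0.40 to -0.31 (0.0547 to 0.503), Stx18 from 0.30 to 0.44 (0.0789 to 0.472) and Syn2 from 0.24 to 0.30 (0.103 to 0.629). Leaving out 1 animal gave 0 to 1 members, 184 to 228 of all probe sets beside 233, and a members' median of 0.08 to 0.15. Of 1091 alternative values of members, 1048 kept their direction. Other floors, filters and the other variance model leave these differences as they were, so their values could not turn. Among the named sets, leaving out 1 animal gave Syt1 values of -0.21 to 0.010 (above 0 without C57 1) and Vamp4 at 93191_at values of -0.0013 (without DBA 1) to 0.21, and Rab3a turned to -0.15 and Syt1 to 0.065 with DBA 4, C57 1 and C57 3 left out; the cause was not tested. That omission, which leaves 3 animals a strain, called 149 of all probe sets. The title numbers as a replicate block, which drops C57 5, called 73 of all probe sets and 0 members. Deviations of same-numbered animals correlated at -0.24 to 0.0002 across probe sets, beside -0.23 to 0.28 for animals of unlike number. Deviations sum to 0 within each strain, so these correlations cannot settle whether the numbers pair the animals.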
